A study of Caenorhabditis elegans with 3 samples.

Results

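The RNA exosome subunit genes exos-1, exos-2, exos-3, exos-4.1, exos-9 and dis-3 are 6 of the 19985 protein-coding genes in the annotation of Caenorhabditis elegans. They were chosen by symbol, on the signal of exos-2, whose promoter peak is among the 25 strongest peaks of the series, so the exos-2 peak is described here and not tested. ChIP-seq, in which the DNA bound by a protein is pulled down with an antibody and sequenced, was carried out in L4 larvae, the last larval stage, of both sexes. The protein was eGFP-tagged R02D3.7, whose gene is called rcat-1 today. The animals were of strain OP218, genotype unc-119(ed3) III; wgIs218, where wgIs218 is the inserted transgene and unc-119(ed3) a mutation that all samples carry. The 3 biological replicates form 1 group with no second condition, and replicate 3 differs from replicates 1 and 2 in its recorded source and fragmentation. Whole animals were used, so a peak does not say in which cells the protein was bound.

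The RNA exosome is a conserved complex that degrades and trims RNA from the 3′ end, in the nucleus and in the cytoplasm. It matures ribosomal and small nucleolar RNAs and removes faulty and unstable transcripts. Its core, as known from yeast and human, is a barrel. RNase PH-type subunits without catalytic activity form the ring (among them exos-4.1, the counterpart of Rrp41, and exos-9, that of Rrp45). RNA-binding subunits form the cap through which RNA enters (exos-1, exos-2 and exos-3, the counterparts of Csl4, Rrp4 and Rrp40). The nuclease, dis-3 (counterpart of Rrp44), sits at the far end of the barrel and does the cutting.

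Peaks on ce11 were deposited as a thresholded list of 390 peaks, as the pooled list of 11533 peaks it was drawn from, and as replicate lists of 27624, 28357 and 30000 peaks. A promoter peak is one with its summit no more than 1000 bp before and 200 bp after the start of a transcript. The signal of a peak is the strength that the authors' caller gave it, and ranks run from 1 for the strongest peak within a list. Distances to a gene are counted from its annotated 5′ end. For the other RNA decay genes listed further below, the nearest annotated transcript start was used instead. Signal is not comparable between lists, whose medians were 60.9 in the thresholded list, 13.1 in the pooled list, and 4.39, 4.02 and 3.60 in replicates 1, 2 and 3. The thresholded list ended at pooled rank 390 with a signal of 35.6, and the next pooled peak had 35.5. The lists carry no read counts, so the depth is unknown and no counting error can be given for any signal.

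Of the 6 RNA exosome genes, exos-2 and dis-3, a cap subunit and the nuclease, had promoter peaks in the thresholded list. The bases just upstream of both genes are shown first, with those of exos-4.1, which had no pooled peak, beside them. Each line gives the 170 bases before the gene's start, 5′ to 3′ on the strand of the gene, read from the RefSeq genome WBcel235; for exos-4.1 the last 4 are left out because tin-9.2 begins there. Capitals mark CGACAC and CGTAAA, which appear in exos-2 as their reverse complements GTGTCG and TTTACG and are absent from the stretch of exos-4.1. The stretches are exos-2 at chrIV:6415308-6415477, dis-3 at chrIV:10097032-10097201 and exos-4.1 at chrIV:13098829-13098994, all on the plus strand. They lie in no annotated gene, with piRNA genes left out.
exos-2: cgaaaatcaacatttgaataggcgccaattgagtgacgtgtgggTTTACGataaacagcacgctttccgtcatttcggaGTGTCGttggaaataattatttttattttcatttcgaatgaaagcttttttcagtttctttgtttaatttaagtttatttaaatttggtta
dis-3: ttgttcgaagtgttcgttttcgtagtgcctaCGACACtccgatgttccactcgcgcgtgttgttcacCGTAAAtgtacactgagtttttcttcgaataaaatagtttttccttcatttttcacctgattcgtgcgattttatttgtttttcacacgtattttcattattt
exos-4.1: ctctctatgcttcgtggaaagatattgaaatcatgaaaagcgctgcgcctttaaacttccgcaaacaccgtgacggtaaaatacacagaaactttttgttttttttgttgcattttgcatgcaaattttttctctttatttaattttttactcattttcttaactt

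In the thresholded list, 2 of the 6 genes had a promoter peak, exos-2 and dis-3, where 2.05% of protein-coding genes and 1.89% of all genes did. The exos-2 peak was used in the choice of the genes, so only dis-3 was not fixed by it. The counts and ranks that follow include exos-2 as well. Its peak was chosen from the same reads, so its part in them was not free either. In the pooled list 4 of 6 had a peak (exos-1, exos-2, exos-3 and dis-3), against 21.6% of protein-coding genes and 20.9% of all genes. The replicate lists reach far down into weak peaks. All 6 genes had a promoter peak in replicate 1, against 39.3% of protein-coding genes and 37.5% of all genes. In replicate 2 the count was 4 of 6, without exos-3 and exos-9, against 37.4% and 36.9%. In replicate 3 it was 5 of 6, without exos-9, against 40.8% and 39.7%. The 4 genes exos-1, exos-2, exos-4.1 and dis-3 had a promoter peak in every replicate, as did 14.9% of protein-coding genes. Among protein-coding genes with a peak, the median rank of the strongest one was 145 in the thresholded list and 4128 in the pooled list, and 10149, 10790 and 11434 in replicates 1, 2 and 3. In the thresholded list exos-2, at rank 16, was stronger than this median and dis-3, at rank 169, was weaker. The strongest peaks of exos-2, dis-3 and exos-4.1 were stronger than the median in all 3 replicates. Those of exos-4.1 lay at differing positions over a range of 885 bp, and exos-4.1 had no pooled peak. In the pooled list exos-2, dis-3 and exos-1 were stronger than the median and exos-3 was weaker.

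**Figure D1:**
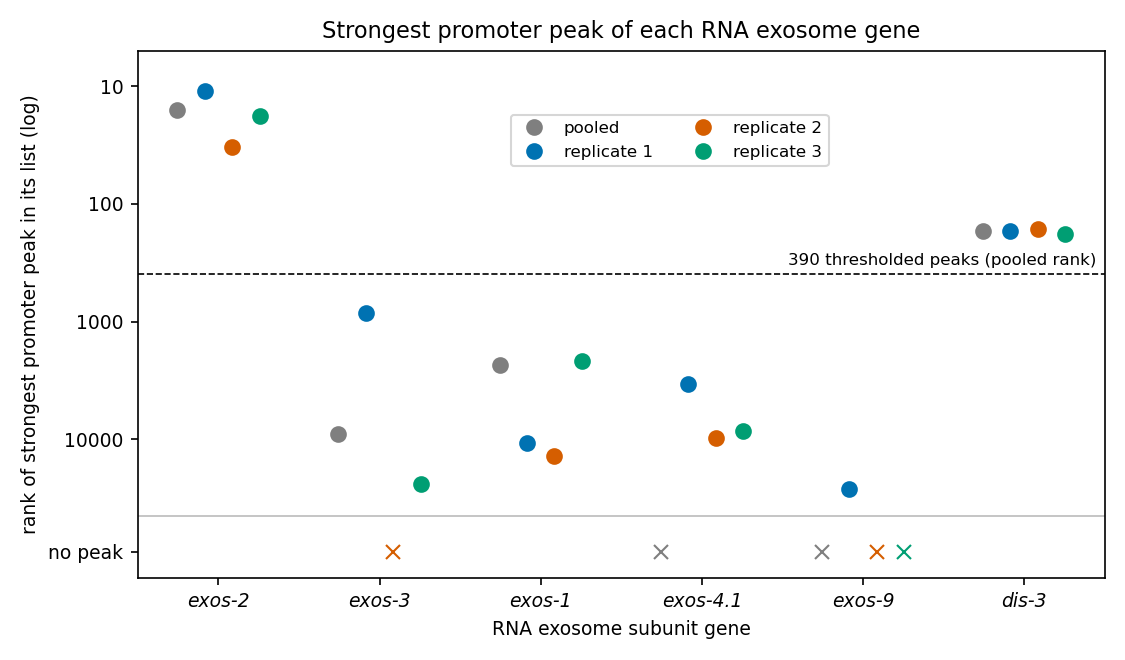
Rank of the strongest promoter peak of each RNA exosome gene (y axis, log scale, 1 is the strongest) in the pooled list and the 3 replicate lists (points), with crosses for a list without a promoter peak. The points of exos-2 lie between ranks 11 and 33 and those of dis-3 between 164 and 179, and every point of the other genes is below the dashed line at rank 390.

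Of the cap genes, exos-2 (WBGene00022232, chrIV:6415478-6417460, plus strand) had the strongest peak. It spanned chrIV:6415175-6415562, which covers the start of the gene, and its summit lay 106 bp upstream. Its signal of 336 put it at rank 16 in the thresholded and the pooled list, at 5.52 times the thresholded median and 25.7 times the pooled median. The peaks next to it in rank had 358 at rank 15 and 315 at rank 17, and the choice of the 25 strongest ended between 272 at rank 25 and 267 at rank 26. The signal was 170 at rank 11 in replicate 1, 59.1 at rank 33 in replicate 2 and 106 at rank 18 in replicate 3. All 3 replicates thus placed it among their 33 strongest peaks.

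The 3 replicate summits at exos-2 lay 143, 131 and 129 bp upstream of the start (mean -134 ± 7.57 bp, SD, n = 3), within a range of 14 bp. The pooled summit lay downstream of all of them. Replicates 1 and 2 listed a weaker peak beside the strong one, with signal 10.6 at rank 1173 and summit 58 bp inside the gene in replicate 1, and 5.60 at rank 6198 and 78 bp inside in replicate 2. The exos-2 peak was in the promoter window of no other gene, with piRNA genes left out. The nearest upstream gene is nlp-71, a neuropeptide-like gene on the opposite strand that begins 1895 bp away, and Y73B6BL.22 lies within exos-2 on the opposite strand. Downstream, Y73B6BL.23 lies 235 bp from the end of exos-2.

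The peak nearest to exos-1 (WBGene00012966, chrIII:11009043-11010588, plus strand) lay at the far edge of its window. The pooled peak had signal 17.3 and rank 2333, and its summit was 985 bp upstream. Its deposited −log10 q was 0.62, against 2.93 for exos-2. All 390 peaks of the thresholded list carry that same 2.93, so it does not set exos-2 apart from them. Replicate 1 had signal 4.95 at rank 10698, replicate 2 had 4.05 at rank 13913 and replicate 3 had 7.25 at rank 2166. The replicate summits lay 982, 721 and 979 bp upstream, so replicate 2 stood at least 258 bp from the others. This pooled summit was 164 bp upstream of the start of Y48A6B.3, a gene on the same strand that ends 113 bp before exos-1 and encodes a counterpart of a box H/ACA ribonucleoprotein subunit, and it was also in the window of fipr-17. With a peak assigned only to the nearest start, exos-1 had none in the pooled list. Downstream of exos-1 lies kvs-4, a potassium channel gene, 1975 bp away.

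For exos-3 (WBGene00010325, chrI:10518379-10519258, plus strand), the third cap gene, the replicates did not place a peak at one position. The pooled peak had signal 11.3 at rank 8920, below the pooled median, with a −log10 q of 0.07 and its summit 11 bp inside the gene. Replicate 1 had 12.0 at rank 842 with its summit 349 bp upstream, and 4.84 at rank 11213 with its summit 107 bp upstream. Replicate 2 had no peak in the window, and replicate 3 had 2.73 at rank 23834 with its summit 559 bp upstream. The pooled peak was shared with ndub-10, which begins 101 bp after exos-3 and encodes a counterpart of a mitochondrial complex subunit, and with nlp-4, a neuropeptide-like gene on the opposite strand that begins 323 bp upstream. A thresholded peak of signal 50.3, rank 248, had its summit 1116 bp upstream of exos-3, just outside the window. It was in the windows of the small nucleolar RNA gene F59C6.15, of the non-coding RNA gene F59C6.19 and of F59C6.18.

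The ring gene exos-4.1 (WBGene00007201, chrIV:13098999-13100617, plus strand, 3 annotated starts) had weak peaks in each replicate list and none in the pooled list. Its strongest peaks had signal 7.52 at rank 3392 in replicate 1, 4.73 at rank 9807 in replicate 2 and 4.63 at rank 8528 in replicate 3. The −log10 q of these peaks was 1.26, 0.39 and 0.65. Their summits lay 52 bp upstream, 748 bp upstream and 137 bp inside the gene, a range of 885 bp. Every such peak was shared with tin-9.2, a gene for a translocase of the mitochondrial inner membrane that starts 4 bp upstream of exos-4.1 and overlaps it. The peaks of replicates 1 and 3 were also in the window of dli-1, the dynein light intermediate chain gene, which begins 206 bp upstream on the opposite strand. Downstream, fask-1 begins 97 bp after exos-4.1.

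The other ring gene, exos-9 (WBGene00018154, chrIII:7196224-7198073, minus strand, 2 annotated starts), had a single promoter peak in any list. It was in replicate 1, with signal 2.95 at rank 26409, a −log10 q of 0.03 and a summit 132 bp inside the gene. The prefoldin subunit gene pfd-5 ends 77 bp upstream on the same strand, and its promoter window also held a peak only in replicate 1, with signal 3.10 at rank 24662. Downstream, F37C12.18 lies 798 bp away. The nearest thresholded peaks of exos-1, exos-4.1 and exos-9 had their summits 19355 bp upstream, 8063 bp downstream and 7918 bp downstream of those genes' starts.

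The nuclease gene dis-3 (WBGene00001001, chrIV:10097202-10106523, plus strand) had the second thresholded peak. It spanned chrIV:10096872-10097301 with its summit 115 bp upstream of the start, close to the place of the exos-2 summit relative to its gene. The signal was 74.7 at rank 169 in the thresholded and the pooled list, 1.23 times the thresholded median and 5.72 times the pooled median. Replicate 1 had 34.1 at rank 169, replicate 2 had 21.1 at rank 164 and replicate 3 had 22.4 at rank 179. The ranks of dis-3 thus lay closer together than those of exos-2, while its summits, 76, 66 and 130 bp upstream, were spread more widely (mean -90.7 ± 34.4 bp, SD, n = 3). Replicate 1 also had 10.7 at rank 1170 with its summit 124 bp inside the gene, and 7.01 at rank 4133 with its summit 893 bp upstream. No other gene had the dis-3 peak in its window, with piRNA genes left out. The major sperm protein gene msp-36 ends 1385 bp upstream, and egl-38, a PAX-type transcription factor gene on the opposite strand, lies 75 bp downstream.

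**Figure D2:**
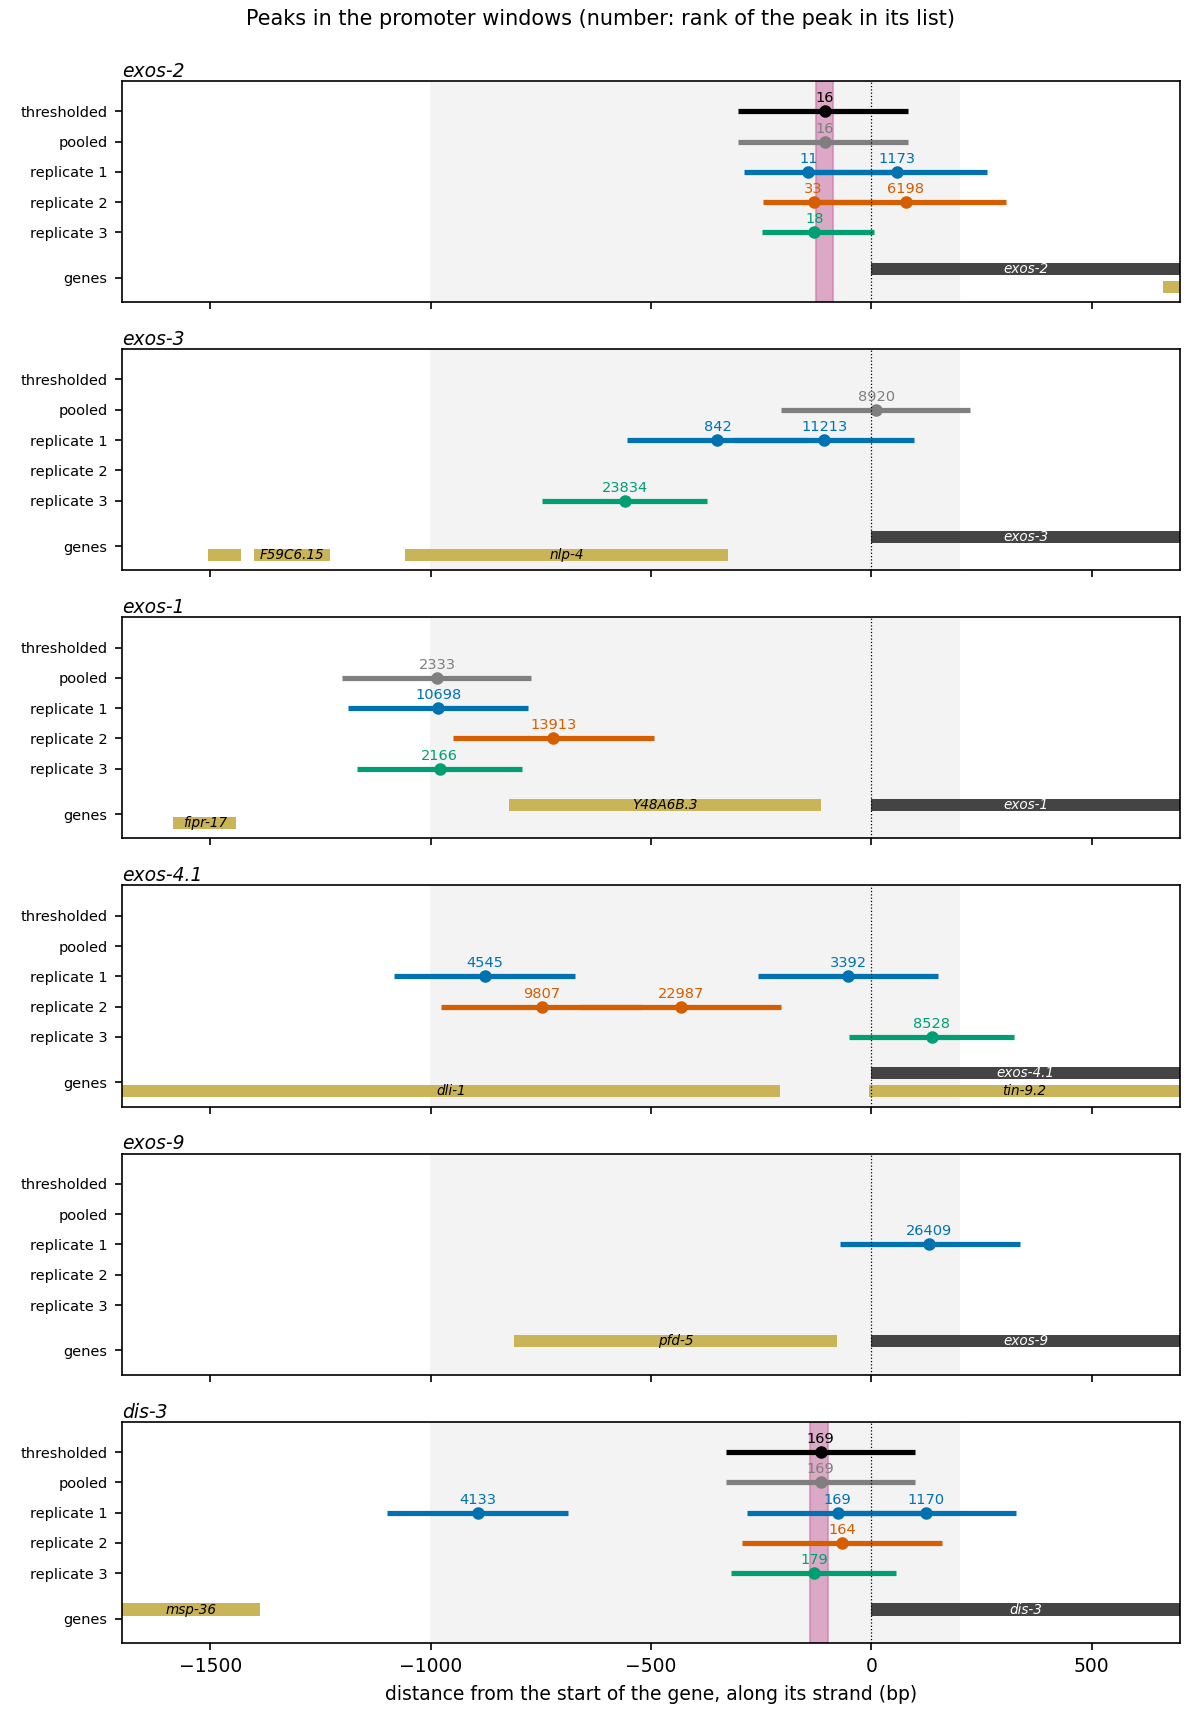
Peaks with a summit in the promoter window (grey band) of each RNA exosome gene, by distance from the gene's start in bp along its strand. Lines are peaks, points summits and numbers ranks in each list, dark bars the gene itself, yellow bars neighbouring genes (unlabelled where under 100 bp is in view), and pink bands the paired motifs. The strongest peaks of exos-2 and dis-3 have their summits within 150 bp upstream of the start in every list, weaker peaks in replicates 1 and 2 lie elsewhere in their windows, and those of exos-3 and exos-4.1 scatter.

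**Figure D3:**
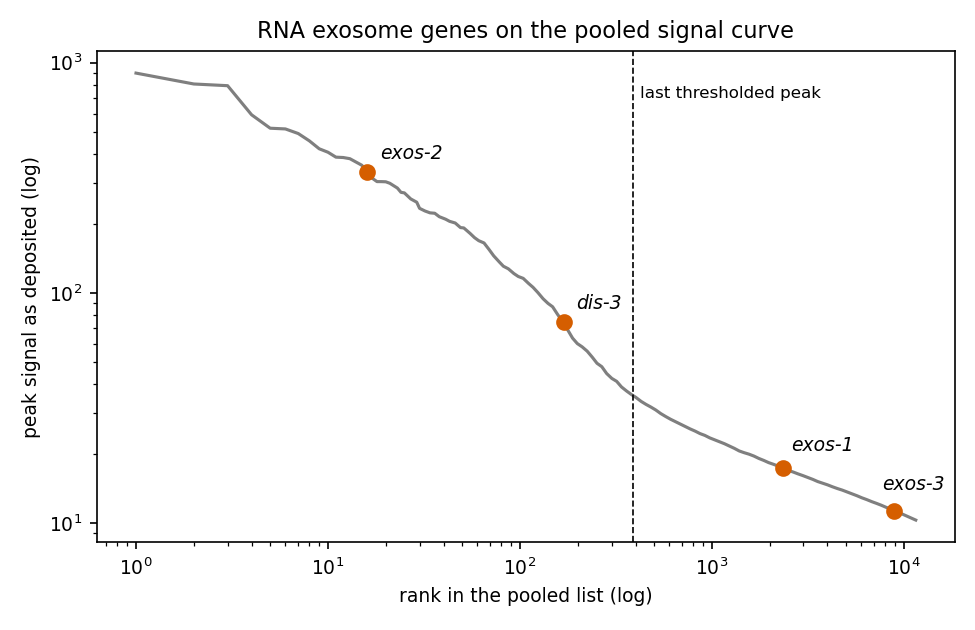
Signal (y axis, log scale, as deposited) by rank (x axis, log scale) in the pooled list, with the 4 RNA exosome genes that had a pooled promoter peak as points. The dashed line is the last thresholded peak, at signal 35.6; exos-2 at 336 and dis-3 at 74.7 are left of it, and exos-1 at 17.3 and exos-3 at 11.3 are right of it.

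The sequence under the peaks of exos-2 and dis-3 was then compared with that under other peaks, on both strands. CGTAAATC, the longest of the 5 motifs searched, was within 50 bp of the summit in neither of the 2 peaks, while 38.2% of the 390 thresholded peaks, 2.23% of the 11143 pooled peaks below the threshold (weaker pooled peaks) and 1.25% of 19973 protein-coding promoters (the 200 bp before a gene) held it. Its first letters, CGTAAA, were in both, against 45.4% of thresholded peaks, 6.12% of weaker pooled peaks and 9.52% of promoters. CGACAC was in both as well, against 24.6% of thresholded peaks, 4.07% of weaker pooled peaks and 4.26% of promoters. ACACTC, which overlaps CGACAC by 4 letters where they occur together, was in both, against 17.4%, 3.87% and 6.77%. ACGCGC was in the dis-3 peak alone, against 15.1%, 2.82% and 4.34%. The windows around the summits were 101 bp and the promoters 200 bp, so these shares are not at equal length. In windows of 201 bp, within 100 bp of the summit, the weaker pooled peaks held each of these motifs more often than the promoters. The shares there were 10.9% for CGTAAA, 7.68% for CGACAC, 7.49% for ACACTC and 5.35% for ACGCGC. The peaks of exos-2 and dis-3 therefore lacked the full CGTAAATC and held its first letters together with CGACAC.

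In both promoters CGACAC was followed on the same strand by CGTAAA at nearly the same distance, counted from first letter to first letter. The distance was 35 bp in exos-2, on the minus strand and 126 to 86 bp upstream of the start. In dis-3 it was 36 bp, on the plus strand and 139 to 98 bp upstream. The pair thus points away from exos-2 and towards dis-3. Its middle was 0 bp from the pooled summit in exos-2 and 4 bp upstream of it in dis-3. The strongest replicate summits of exos-2, 143, 131 and 129 bp upstream of the start, all lay outside the pair. In dis-3 those of replicates 1 and 2, 76 and 66 bp upstream, lay outside it. That of replicate 3, 130 bp upstream, lay inside it. The pairs are printed below on their own strand with 3 further bases, beside those of pph-5 and panl-2, which have the strongest such peak after exos-2 and the only one among the other RNA decay genes listed here; capitals mark both motifs. The pairs without the further bases lie at chrIV:6415352-6415392 (minus strand), chrIV:10097063-10097104 (plus), chrV:19190272-19190313 (plus) and chrIII:6968446-6968487 (minus).
exos-2: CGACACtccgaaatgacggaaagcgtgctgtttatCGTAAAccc
dis-3: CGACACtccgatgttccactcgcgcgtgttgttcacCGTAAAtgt
pph-5: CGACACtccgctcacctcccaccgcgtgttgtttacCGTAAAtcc
panl-2: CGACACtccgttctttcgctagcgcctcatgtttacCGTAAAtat

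The pair was noticed in exos-2 and dis-3 and counted afterwards over all peaks, promoters and the genome, so its presence in these genes is a description. The counts in thresholded peaks, in promoters and over the genome include these same genes, from which the motifs and their distance were taken. Within 100 bp of the summit, CGACAC followed by CGTAAA at 35 or 36 bp was in 28 of 390 thresholded peaks (7.18%), in 5 of 11143 weaker pooled peaks (0.0449%) and in 27 of 19973 protein-coding promoters (0.135%). Of the thresholded peaks, it was in 2 of the 25 strongest, in 9 of the next 75 and in 17 of the remaining 290. The exos-2 peak at rank 16 was the strongest with it, and pph-5, a protein phosphatase gene, followed at rank 19 with signal 304. Over the genome the pair was found at 78 places, of which 29 (37.2%) lay inside a thresholded peak and 39 inside a pooled peak. The distance was 35 bp at 13 of these 29 places, exos-2 among them, and 36 bp at 16, dis-3 among them.

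At the 29 places in thresholded peaks, 26 were in the promoter window of a protein-coding gene, and the peaks ranked from 16 to 370 with a median of 132. The share of all 390 thresholded peaks in such a window was not counted, so the 26 cannot be read as particular to the pair. The middle of the pair was at a median distance of 18 bp from the summit, within 20 bp at 17 places and at most 143 bp away. Between the motifs, the letters TCC after CGACAC were present in exos-2 and dis-3 and, position by position, in 12 of 13 places of 35 bp and 16 of 16 of 36 bp. Directly after CGTAAA, the T that begins the end of CGTAAATC was present at 11 of 13 and 15 of 16 places and the C that ends it at 11 of 13 and 12 of 16, while exos-2 and dis-3 did not have them together. Both promoters share the run ACGACACTCCGA on the strand of the pair. It is found at 149 places in the genome, in 17 thresholded and in 11 weaker pooled peaks.

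**Figure D4:**
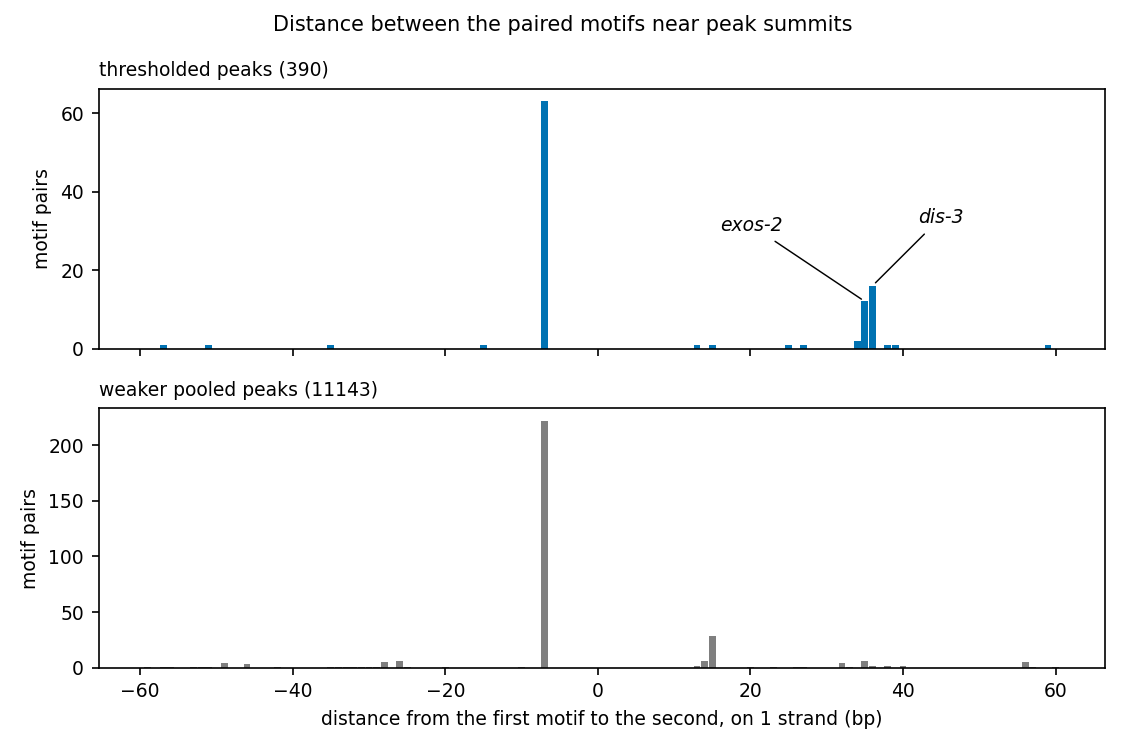
Number of motif pairs (y axis) by the distance in bp from the first letter of CGACAC to that of CGTAAA on the same strand (x axis, negative where CGTAAA comes first), within 100 bp of the summits of the thresholded peaks (top) and of the weaker pooled peaks (bottom). A peak can hold several pairs; the top panel has 12 pairs at 35 bp and 16 at 36 bp, where exos-2 and dis-3 are, against 6 and 2 in the bottom panel, and both panels have their highest bar at -7 bp.

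A closer arrangement of the same motifs, with CGTAAA beginning 7 bp before CGACAC, was the commonest in both sets and was in neither exos-2 nor dis-3. It made up 63 pairs in thresholded peaks and 222 in weaker pooled peaks. Over the genome it was found at 1681 places, of which 68 (4.05%) were inside a thresholded peak. The share was 37.2% for the arrangement of exos-2 and dis-3. That arrangement was picked from their thresholded peaks, which are among its places, so these shares are not on equal terms.

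In the promoter windows of the other 4 genes the pair was absent. The window of exos-1 held CGTAAA once, 960 to 955 bp upstream, beside the pooled summit there, and the window of exos-9 held it once, 397 to 392 bp upstream, where no list had a peak. The window of exos-3 held CGACAC once, 408 to 403 bp upstream, and that of exos-4.1 held neither. Windows of the same 1201 bp held CGTAAA in 39.5% and CGACAC in 25.3% of protein-coding genes, so a match to either alone was common.

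Among 24 other genes of RNA decay matched by symbol, 3 had a thresholded peak, 11 a pooled peak and 16, 15 and 16 a peak in replicates 1, 2 and 3; the shares of protein-coding genes given above are 2.05%, 21.6%, 39.3%, 37.4% and 40.8%. None of the 5 other exosome subunits matched (exos-4.2, exos-7, exos-8, crn-3 and crn-5) had a thresholded peak, and exos-8 alone had a pooled one, with signal 13.7 at rank 5022 and its summit 35 bp upstream. Of the cofactors and partners, pelo-1, the counterpart of the ribosome rescue factor Pelota, had a thresholded peak of signal 106 at rank 115, 56 bp upstream. The nuclear helicase gene mtr-4 had a pooled peak of 16.7 at rank 2613, 255 bp upstream, and ttc-37 had 10.4 at rank 11252, 25 bp upstream. That of nrde-2 had 18.6 at rank 1887, with its summit 958 bp upstream, at the far edge of its window. Of the other ribonucleases, xrn-2, which degrades RNA from the 5′ end in the nucleus, had a pooled peak of 25.2 at rank 801, and eri-1 had 10.7 at rank 10374. Of decapping and deadenylation, dcap-1, a decapping subunit, had a thresholded peak of 123 at rank 91, 143 bp upstream. The poly(A) nuclease subunit panl-2 had a thresholded peak of 79.2 at rank 161, 317 bp upstream. The deadenylase genes ccr-4 and ccf-1 each had a pooled peak of 12.3, at ranks 6872 and 6942. Near their summits pelo-1 and dcap-1 held CGTAAATC and not the pair, and panl-2 held the pair and not CGTAAATC, as exos-2 and dis-3 did.

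The genes outside the windows of the 6 whose peaks had ranks most like those of exos-2 over the 3 replicate lists were named from 402 protein-coding genes by the distance of log2 ranks. Y59E9AL.36 and nbet-1 share 1 peak, at ranks 16, 27 and 20 in replicates 1, 2 and 3 (distance 0.63). F54D10.5 followed at ranks 14, 28 and 28 (0.76), the ribosomal protein gene rps-24 at 21, 23 and 24 (1.15) and the dihydrolipoamide dehydrogenase gene dld-1 at 24, 24 and 15 (1.24). As these genes were picked by these same ranks, their likeness to exos-2 in them follows from the choice.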

How the data were processed

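Peak lists from ChIP-seq in 3 replicates were deposited by the authors. Per the deposited description files, the pooled list was called on the 3 alignments together and the thresholded list was derived by the irreproducible discovery rate; the aligner and the peak caller are not stated in the sources used here. Signal (column 7) and the −log10 q of each peak are the authors' deposited values, used only within a list. Because the pooled list shares its reads with the replicate lists, these lists are not independent. Whether the replicates came from separate cultures is given only as far as the labels call them biological replicates.

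Peaks were joined to 41789 transcript starts of Ensembl release 115 (WBcel235, the sequence of ce11), without 15363 piRNA genes, which left 31563 genes; ce10 lists were not used. Coordinates are 1-based. Motifs were counted as exact matches on both strands in the RefSeq genome. Python 3.11.15, numpy 2.4.6, pandas 2.3.3 and matplotlib 3.10.9 were used. The join recovered 200 of 200 summits planted in simulated data. No test was run: there is 1 group, and the genes were chosen from its peaks. Other windows, assignments, list lengths and left-out replicates were tried. Of 32 listed decay genes, 8 symbols were not matched. Named are the 6 genes, genes sharing their peaks, nearest neighbours, decay genes with a thresholded or pooled peak, and the 5 genes most like exos-2 in rank. The members, gene list and motifs were chosen with earlier results of these data known, and pph-5 and the motif pair after their values were seen.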

Additional observations from a re-analysis of the deposited data

How the results depend on the processing

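Of 63 alternatives, 54 left the count or share within 1.5 times its value and 9 moved it further. The 4 genes with a promoter peak in every replicate became 2, exos-2 and dis-3, with a peak assigned only to its nearest start. They also became 2 with the 5000 strongest peaks of each replicate, and leaving out each replicate gave 4 to 5. The share of all genes with a peak in every replicate was not counted under these settings. The genes with the exos-2 peak in their window became 2 with a window from 2000 bp upstream to 500 bp downstream, and 2 with piRNA genes included. The exos-2 and dis-3 peaks with CGTAAATC, 0, became 2 with its first 6 letters. The share of all genes with a peak fell to 24.7%, 23.3% and 25.6% in replicates 1, 2 and 3 with a window from 500 bp upstream to 100 bp downstream, and to 1.03% in the thresholded list with the nearest start only. The thresholded count of 2 became 3, with exos-3 added, with the window from 2000 bp upstream or with any overlap of 1 bp. The share of all genes with a thresholded peak was 2.36% with that window and 2.02% with any overlap. The 28 thresholded peaks with the motif pair became 32 with any distance of 30 to 40 bp and 21 within 50 bp of the summit, both chosen after seeing the data. Ranking by column 8 of the lists was not run, since it holds a single value. No paired analysis was possible because there is 1 group and no test. The depth of the replicates is unknown, so a missing peak in 1 list says only that the authors' caller listed none there.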
